A study of Mus musculus with 6 samples.

Results

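The genes described here encode collagens, laminins, integrins and 8 further proteins of the extracellular matrix, measured by RNA-seq in mouse embryonic stem cells whose Nanog was either the R153A form or wild type (WT). A gene was a member if its symbol was that of a collagen alpha chain, a laminin chain or an integrin subunit, or was Fn1, Spp1, Sparc, Nid1, Nid2, Hspg2, Mmp2 or Timp1, and if its FPKM was above 0 in at least 3 libraries. The rule found 84 members among the 24083 gene symbols of the table. They were 42 collagen chains, 11 laminin chains, 16 integrin alpha subunits, 7 integrin beta subunits and the 8 other matrix genes. Another 5 symbols matched by name (Col19a1, Col28a1, Itgad, Itgax and Itgb6) were above 0 in 1 or 2 libraries and are not members.

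There were 3 libraries of Nanog R153A cells and 3 of Nanog WT cells, made from polyadenylated RNA. Per the labels, the cells of both groups were kept under normal culture with serum and LIF on dishes coated with gelatin, which is itself denatured collagen. R153A is a change of an arginine to an alanine in NANOG, a homeodomain transcription factor of pluripotent cells. The sources used here do not say how the cells came to carry R153A, nor if replicate libraries stem from different cultures or clones, so p-values measure the spread between these libraries, which may be technical. The data are bulk values, in which fewer cells of a type and less RNA per cell cannot be told apart.

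Laminins and collagen IV are the 2 network-forming proteins of basement membranes, the sheets of matrix under epithelia and around the early epiblast. A laminin is a trimer of an alpha, a beta and a gamma chain, nidogens and the proteoglycan perlecan bind the laminin and collagen IV networks, and other collagens build fibrils or attach to them. Integrins are cell-surface dimers of an alpha and a beta subunit. The alpha subunit largely sets the ligand: Itga3, Itga6 and Itga7 serve laminin, Itga1, Itga2, Itga10 and Itga11 serve collagen, and Itga5, Itgav, Itga8 and Itga2b serve proteins with an Arg-Gly-Asp (RGD) motif such as fibronectin, vitronectin and osteopontin. Mouse embryonic stem cells are known to make basement membrane proteins of their own.

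FPKM is a read number scaled to transcript length and library size, so levels of different genes can be set side by side, but the depth behind each value is unknown. Summed FPKM was 372761 to 382086 in R153A libraries and 360152 to 381782 in WT libraries. Nanog itself stood at 123 ± 5.16 FPKM in R153A cells and 253 ± 10 FPKM in WT cells (SD, n = 3 each), which does not show the mutation. A list of 10 embryonic stem cell markers, all of them measured above 1 FPKM, summed to 2308 to 2410 FPKM in R153A libraries and 4339 to 5103 FPKM in WT libraries. Without Dppa5a, the marker with the largest difference, it summed to 1389 to 1451 FPKM in R153A libraries and 1984 to 2119 FPKM in WT libraries. Of the 10 markers 8 were called lower in R153A cells, against 22.3% of all genes tested.

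Of the 84 members, 38 reached 1 FPKM in at least 3 libraries and were tested. With limma on log2(FPKM + 1) and Benjamini-Hochberg adjustment over all 11817 genes tested, 37 of the 38 passed an adjusted p of 0.05 (97.4%), against 59.8% of all genes tested. Higher in R153A cells were 24 members (63.2%, against 37.5% of all genes), and lower were 13 (34.2%, against 22.3%). The ranges of the R153A and WT groups did not overlap for 37 members (97.4%), against 65.0% of all genes. The median log2 fold change, R153A minus WT, was 0.34 for the members and 0.07 for all genes, and the median size of change was 0.71 for the members and 0.24 for all genes. Col1a2, Col9a3 and Lamb3 were tested only because of their R153A values, and Itga9, Itgb3 and Lama1 only because of their WT values, so these 6 had to differ. In the GENCODE M21 annotation 12 of the 38 share exonic bases with another gene, by at most 18.8% of their length. On the log2(FPKM + 1) scale the changes of low genes are understated.

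The balance of rises and falls depends on scaling. Higher calls made up 62.7% of all calls over all genes with the values as deposited, 50.7% under median-ratio scaling, 47.4% under quantile normalization and 48.5% after a correction for GC content and length. For the members the same shares were 64.9%, 61.8%, 60.6% and 57.6%.

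**Figure D1:**
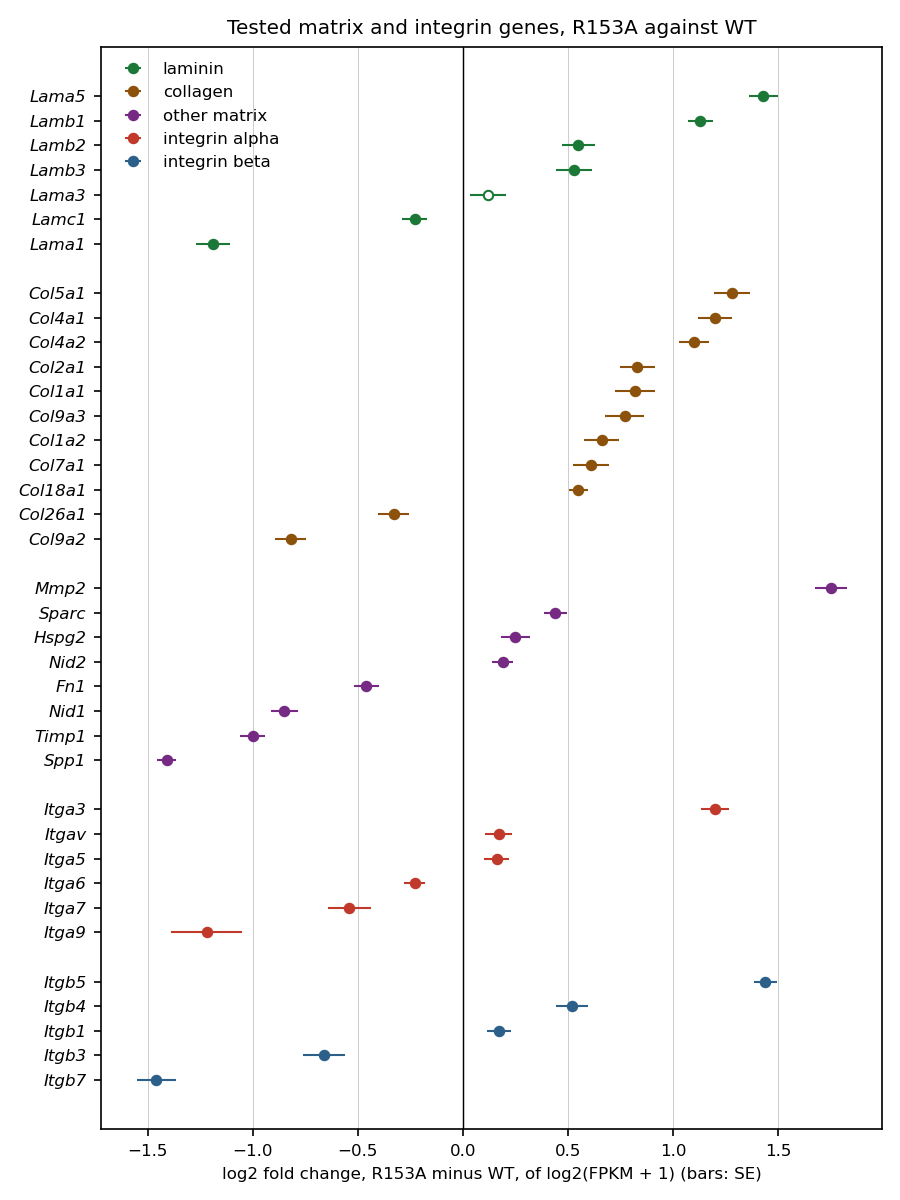
Log2 fold change (R153A minus WT, on log2(FPKM + 1)) of 37 tested members by class, with bars for the standard error from limma; the open circle is Lama3, the member that was not called. Mmp2 lies highest at 1.75, Itgb7 and Spp1 lowest at -1.46 and -1.41, and each class holds members on both sides of 0.

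The laminin chains changed in opposite directions. Lama5, Lamb1, Lamb2 and Lamb3 rose in R153A cells, Lama1 and Lamc1 fell, and Lama3 was not called. Lama5 and Lamb1, the alpha and beta chain with the highest levels, and the collagen IV pair Col4a1 and Col4a2 were the basement membrane chains that rose by more than 1 on the log2 scale, and stretches around their start sites are shown as the sequences nearest to these changes. They are RefSeq promoter windows (GRCm38.p6, while the deposited table was made on mm9), 250 bases before to 50 bases after the start, and 59 of the 84 members had one. Col4a1 and Col4a2 start 21 bases apart on opposite strands, and capitals in the Col4a2 window mark the 78 bases that lie in the windows of both genes. In the Lama5 and Lamb1 windows capitals mark GGGCGG, the core of a GC box, on either strand. The windows are chr8:11312555-11312854 (plus strand) for Col4a2, chr2:180225810-180226109 (minus strand) for Lama5 and chr12:31265043-31265342 (plus strand) for Lamb1.
Col4a2: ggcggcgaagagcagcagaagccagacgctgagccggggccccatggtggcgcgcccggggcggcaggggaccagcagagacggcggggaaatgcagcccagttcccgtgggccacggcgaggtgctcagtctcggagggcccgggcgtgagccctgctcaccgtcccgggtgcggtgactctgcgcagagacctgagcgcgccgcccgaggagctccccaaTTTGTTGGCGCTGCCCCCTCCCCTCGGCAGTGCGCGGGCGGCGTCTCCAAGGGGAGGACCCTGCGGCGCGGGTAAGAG
Lama5: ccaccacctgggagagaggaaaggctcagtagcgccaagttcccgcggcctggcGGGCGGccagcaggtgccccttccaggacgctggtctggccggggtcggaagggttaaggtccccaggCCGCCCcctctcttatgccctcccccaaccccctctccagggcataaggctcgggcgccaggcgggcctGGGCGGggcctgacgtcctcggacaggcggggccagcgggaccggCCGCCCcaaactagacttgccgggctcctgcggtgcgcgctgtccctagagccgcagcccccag
Lamb1: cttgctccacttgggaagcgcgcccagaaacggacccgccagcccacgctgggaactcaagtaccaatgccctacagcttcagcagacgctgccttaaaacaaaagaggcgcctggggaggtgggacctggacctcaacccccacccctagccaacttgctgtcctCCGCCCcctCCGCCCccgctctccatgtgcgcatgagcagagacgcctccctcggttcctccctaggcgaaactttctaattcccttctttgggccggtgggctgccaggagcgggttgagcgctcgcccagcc
GGGCGG occurred 4 times in the Lama5 window, 2 times in that of Lamb1, 3 times in that of Col4a2 and 1 time in that of Col4a1, and 35.7% of all 32851 promoter windows hold it at least 1 time. CCAAT, searched on both strands, occurred 1 time in each of the windows of Col4a1, Col4a2 and Lamb1 and not in that of Lama5, against 37.4% of all windows. GGAATG, the letters of a TEAD site, occurred in none of these 4 windows, against 14.7% of all windows. None of the 3 motifs contains another, and a match describes the letters only.

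Lama5, the alpha chain of the laminins of most epithelial basement membranes, had 59.2, 51.7 and 56.3 FPKM in R153A libraries, against 18.9, 22.0 and 19.5 FPKM in WT libraries. All R153A values were far above all WT values, by 1.43 on the log2 scale (standard error, SE, 0.0681; limma adjusted p = 2.06e-08). Lama1, the alpha chain typical of the earliest embryonic basement membranes, did the opposite, with 0.537, 0.543 and 0.506 FPKM in R153A libraries and 2.64, 2.62 and 2.23 FPKM in WT libraries. Every R153A value was under 1 FPKM and every WT value above 2, and the log2 difference was -1.19 (SE 0.0816, limma adjusted p = 3.35e-07). Lama3, an alpha chain of epithelial anchoring laminin, averaged 1.06 ± 0.0585 FPKM in R153A cells and 0.902 ± 0.134 FPKM in WT cells, and was not called (limma adjusted p = 0.258). Lama2 and Lama4 stayed under the testing limit, with no laminin chain among the untested ones above 0.235 FPKM. As a share of the summed FPKM of the 5 alpha chains, Lama5 made up 96.9% in R153A cells and 85.2% in WT cells, and Lama1 made up 0.923% in R153A cells and 10.6% in WT cells. The ratio of Lama5 to Lama1 was 105 ± 8.97 in R153A cells and 8.10 ± 0.837 in WT cells (SD, n = 3 each), with no overlap between the groups.

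Among the beta chains, Lamb1, the common partner of Lama1 and Lama5, had 20.2, 20.8 and 20.8 FPKM in R153A libraries, against 8.33, 9.29 and 8.98 FPKM in WT libraries. The groups stood far apart, and the log2 difference was 1.13 (SE 0.0582, limma adjusted p = 3.67e-08). Lamb2, a beta chain found at synapses and in kidney basement membranes, had 6.04, 5.78 and 5.75 FPKM in R153A libraries and 3.53, 4.16 and 3.41 FPKM in WT libraries (log2 fold change 0.55, limma adjusted p = 0.000112). Lamb3, which joins Lama3 in the anchoring laminin, had 1.27, 1.08 and 1.05 FPKM in R153A libraries and 0.506, 0.397 and 0.532 FPKM in WT libraries (log2 fold change 0.53, limma adjusted p = 0.000269). All 3 beta chains were thus higher in every R153A library than in any WT library. The call of Lamb3 ended under quantile normalization (log2 fold change 0.17, limma adjusted p = 0.118). Lamb1 took 74.7% of beta-chain FPKM in R153A cells and 68.0% in WT cells, and Lamb2 took 21.2% in R153A cells and 28.3% in WT cells.

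Lamc1 did not follow Lama5 and Lamb1. Lamc1, the gamma chain shared by most laminins, had 33.4, 33.1 and 31.5 FPKM in R153A libraries, against 38.2, 41.4 and 36.1 FPKM in WT libraries. It was slightly lower in every R153A library (log2 fold change -0.23, SE 0.0581, limma adjusted p = 0.00545), and the correction for GC content and length moved this to -0.48. Summed over each kind of chain, alpha chains stood at 57.5 ± 3.79 FPKM and beta chains at 27.6 ± 0.0793 FPKM in R153A cells, against 23.6 ± 1.69 and 13 ± 0.749 FPKM in WT cells. Both sums were well separated between groups. The ratio of Lamb1 to Lamc1 was 0.631 ± 0.0266 in R153A cells and 0.230 ± 0.016 in WT cells.

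**Figure D2:**
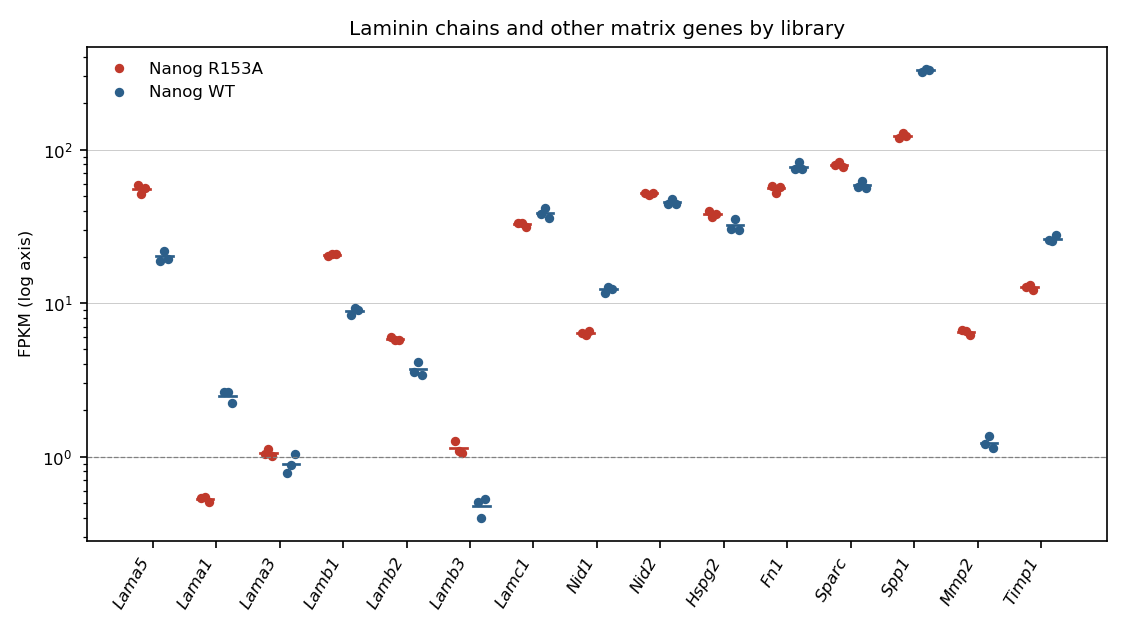
FPKM (log axis) of 7 tested laminin chains and the 8 other matrix genes in each library, R153A in red left of WT in blue, with a short line at the group mean and a dashed line at the 1 FPKM limit for testing. Lama5 and Lamb1 are higher and Lama1 lower in every R153A library, while Lamc1 differs little and Lama3 overlaps.

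Of the 42 collagen members 11 were tested, and 9 rose and 2 fell in R153A cells. Col4a1 and Col4a2, the chains of the common collagen IV of basement membranes, rose together. Col4a1 had 7.70, 6.77 and 7.5 FPKM in R153A libraries, against 2.79, 2.80 and 2.31 FPKM in WT libraries (log2 fold change 1.20, SE 0.0817, limma adjusted p = 3.24e-07). Col4a2 had 4.37, 4.34 and 4.25 FPKM in R153A libraries, against 1.51, 1.52 and 1.42 FPKM in WT libraries (log2 fold change 1.1, SE 0.0705, limma adjusted p = 1.96e-07). Each R153A value of either chain was above every WT value, but the ratio of Col4a2 to Col4a1 overlapped between the groups, at 0.592 ± 0.0422 in R153A cells and 0.566 ± 0.0427 in WT cells. The collagen IV protomer holds 2 chains of Col4a1 for 1 of Col4a2. The annotated transcripts of the pair share 22 exonic bases on opposite strands, 0.3% of the exonic length of either gene. The other collagen IV chains (Col4a3, Col4a4, Col4a5 and Col4a6) were all under the testing limit, and the highest of them, Col4a5, averaged 0.377 ± 0.0446 FPKM in R153A cells and 0.0926 ± 0.0252 FPKM in WT cells.

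Col18a1, a basement membrane collagen that carries heparan sulfate and is the source of endostatin, was the most abundant collagen. It had 96.8, 95.6 and 93.3 FPKM in R153A libraries, against 64.3, 67.8 and 62.7 FPKM in WT libraries (log2 fold change 0.55, SE 0.0471, limma adjusted p = 2.09e-06). All R153A values were higher, and the correction for GC content and length left 0.29 of the log2 difference. Col18a1 made up 69.6 ± 0.87% of collagen FPKM in R153A cells and 71.4 ± 1.3% in WT cells, with overlapping groups. Col7a1, which forms the anchoring fibrils of skin, had 2.51, 2.09 and 2.20 FPKM in R153A libraries and 1.01, 1.25 and 1.16 FPKM in WT libraries (log2 fold change 0.61, limma adjusted p = 9.71e-05). It was higher in every R153A library, and the correction for GC content and length left 0.22 (limma adjusted p = 0.0186).

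The fibril-forming chains above the testing limit were all higher. Col5a1, a chain of the collagen that starts fibrils, had 5.02, 4.19 and 4.88 FPKM in R153A libraries and 1.20, 1.35 and 1.5 FPKM in WT libraries, the largest fold among the tested collagens (log2 fold change 1.28, SE 0.0865, limma adjusted p = 3.08e-07). Its partner Col5a2 stayed lower, at 0.552 ± 0.0726 FPKM in R153A cells and 0.362 ± 0.0474 FPKM in WT cells. Col1a1, the main chain of collagen I, had 2.89, 2.70 and 2.86 FPKM in R153A libraries and 0.875, 1.33 and 1.32 FPKM in WT libraries (log2 fold change 0.82, limma adjusted p = 2.53e-05). Col1a2, the other collagen I chain, had 1.57, 1.60 and 1.93 FPKM in R153A libraries and 0.692, 0.758 and 0.672 FPKM in WT libraries (log2 fold change 0.66, limma adjusted p = 4.78e-05). Both collagen I chains were 2.40-fold higher by mean FPKM. Col2a1, the collagen of cartilage, had 2.91, 2.41 and 2.45 FPKM in R153A libraries and 1.05, 0.992 and 0.993 FPKM in WT libraries (log2 fold change 0.83, limma adjusted p = 6.18e-06). These levels were a few FPKM at most, far under Col18a1. Of 12 fibroblast markers 9 were under 1 FPKM in all libraries. The list summed to 8.53 to 9.02 FPKM in R153A libraries and 5.74 to 8.04 FPKM in WT libraries. Of its 3 tested markers, Thy1 and S100a4 were not called (limma adjusted p = 0.0899 and 0.245). Thy1, the most abundant, averaged 3.19 ± 0.274 FPKM in R153A cells and 3.79 ± 0.467 FPKM in WT cells. Acta2 was called higher, but was tested only because of its R153A values. Under the testing limit, Pdgfra averaged 0.119 FPKM in R153A cells and 0.0301 FPKM in WT cells. The part of these markers in the collagen values was not tested.

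Collagen IX, which decorates fibrils, split by chain. Col9a2 had 5.14, 5.32 and 5.27 FPKM in R153A libraries, against 9, 10.2 and 10.9 FPKM in WT libraries (log2 fold change -0.82, SE 0.0748, limma adjusted p = 3.27e-06). Col9a3 had 1.63, 1.48 and 1.35 FPKM in R153A libraries, against 0.498, 0.322 and 0.568 FPKM in WT libraries (log2 fold change 0.77, SE 0.0925, limma adjusted p = 3.09e-05). In both cases the groups were fully apart, so that the ratio of Col9a3 to Col9a2 was 0.284 ± 0.031 in R153A cells and 0.0464 ± 0.0128 in WT cells. The Col9a3 transcripts share 7.7% of their exonic bases with Tcfl5 on the opposite strand, and Tcfl5 stood at 31.1 ± 1 FPKM in R153A cells and 23.4 ± 0.726 FPKM in WT cells; whether reads were counted by strand is not given, so reads of Tcfl5 in Col9a3 cannot be told apart. Col26a1 was lower, at 1.25 ± 0.0511 FPKM in R153A cells and 1.83 ± 0.0617 FPKM in WT cells (log2 fold change -0.33, limma adjusted p = 0.00279).

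**Figure D3:**
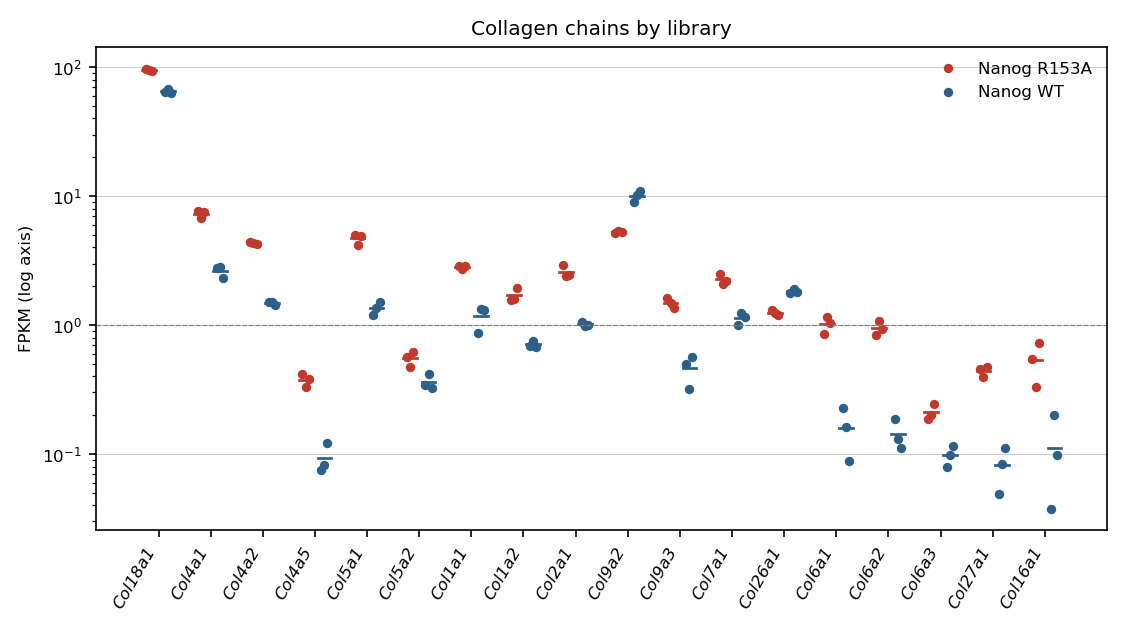
FPKM (log axis) of the 11 tested collagen chains and 7 of the chains under the testing limit in each library, R153A in red left of WT in blue, with a short line at the group mean and a dashed line at 1 FPKM. Col18a1 lies above 60 FPKM in every library, Col4a1, Col4a2 and Col5a1 are clearly higher in R153A cells, and Col9a2 and Col26a1 are lower.

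The 8 other matrix genes split evenly, with 4 higher and 4 lower. Spp1, which encodes osteopontin, an RGD ligand of Itgav integrins, was the most abundant member and fell most among them, with 119, 128 and 122 FPKM in R153A libraries and 321, 333 and 330 FPKM in WT libraries (log2 fold change -1.41, SE 0.0462, limma adjusted p = 1.53e-09). Every R153A library was far under every WT library. In the GENCODE M21 annotation, 18.8% of the Spp1 exonic bases also belong to Gm42793 on the same strand. Fn1, which encodes fibronectin, the main RGD ligand of Itga5 with Itgb1, fell less, with 58.2, 52.4 and 57.3 FPKM in R153A libraries and 74.8, 82.8 and 74.6 FPKM in WT libraries (log2 fold change -0.46, SE 0.0587, limma adjusted p = 4.8e-05). Each R153A value was under each WT value, and the correction for GC content and length moved the log2 difference to -0.72. Sparc, a collagen-binding matricellular protein, was higher, with 79.2, 82.5 and 76.8 FPKM in R153A libraries and 56.7, 62.1 and 56.4 FPKM in WT libraries (log2 fold change 0.44, limma adjusted p = 3.08e-05).

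The linkers between the laminin and collagen IV networks did not move as 1 group. Nid1 had 6.36, 6.16 and 6.59 FPKM in R153A libraries, against 11.6, 12.8 and 12.4 FPKM in WT libraries (log2 fold change -0.85, SE 0.0633, limma adjusted p = 6.7e-07). Nid2 had 52.5, 50.7 and 52.1 FPKM in R153A libraries, against 44.0, 48.0 and 44.3 FPKM in WT libraries (log2 fold change 0.19, SE 0.0502, limma adjusted p = 0.00798). So Nid1 was clearly lower while Nid2 differed little, and the Nid2 call ended after the correction for GC content and length (log2 fold change 0.03, limma adjusted p = 0.377). The ratio of Nid2 to Nid1 was 8.13 ± 0.192 in R153A cells and 3.71 ± 0.113 in WT cells. Hspg2, which encodes perlecan, had 40.0, 36.4 and 38.1 FPKM in R153A libraries and 30.6, 35.5 and 30.0 FPKM in WT libraries, close but not overlapping (log2 fold change 0.25, limma adjusted p = 0.00844). Its direction turned after the correction for GC content and length (log2 fold change -0.16, limma adjusted p = 0.00466). Nid2 shares 9.0% of its exonic bases with Rtraf on the opposite strand, listed in the table as 2700060E02Rik, at 104 ± 3.69 FPKM in R153A cells and 87.3 ± 2.97 FPKM in WT cells.

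Mmp2, a gelatinase that cuts denatured collagen and collagen IV, had the largest log2(FPKM + 1) rise of the tested members, with 6.63, 6.61 and 6.21 FPKM in R153A libraries and 1.20, 1.37 and 1.13 FPKM in WT libraries (5.26-fold by mean, log2 fold change 1.75, SE 0.0756, limma adjusted p = 9.9e-09). Timp1, an inhibitor of matrix metalloproteinases, fell, with 12.7, 13.2 and 12.2 FPKM in R153A libraries and 25.7, 25.2 and 27.9 FPKM in WT libraries (log2 fold change -1, SE 0.0589, limma adjusted p = 1.01e-07). Mmp2 and Timp1 thus changed in opposite directions, with no overlap between the groups. Of other inhibitors of these proteases, Timp2 and Reck rose with Mmp2 and Timp3 was not called. Timp2, tested only because of its R153A values, stood at 2.32 ± 0.113 FPKM in R153A cells and 0.595 ± 0.133 FPKM in WT cells (log2 fold change 1.06, limma adjusted p = 1.36e-06). Timp3 averaged 2.18 ± 0.153 FPKM in R153A cells and 1.82 ± 0.314 FPKM in WT cells (limma adjusted p = 0.125). Reck, a membrane-anchored inhibitor, averaged 3.27 ± 0.0549 FPKM in R153A cells and 1.83 ± 0.43 FPKM in WT cells (log2 fold change 0.61, limma adjusted p = 0.000408). Mmp14, which activates the MMP2 proenzyme, stood at 18.9 ± 0.46 FPKM in R153A cells and 6.82 ± 0.649 FPKM in WT cells (log2 fold change 1.35, limma adjusted p = 3.4e-08). Timp2, Timp3, Reck and Mmp14 were named after their values were seen.

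Among the laminin-binding integrin subunits, Itga3 rose while Itga6 and Itga7 fell. The dimer of Itga3 with Itgb1 binds laminins with the Lama5 chain, among others. Itga3 had 38.9, 37.0 and 39.3 FPKM in R153A libraries, against 15.3, 18.1 and 15.2 FPKM in WT libraries (log2 fold change 1.20, SE 0.0681, limma adjusted p = 7.61e-08). Itga6, which binds a broader set of laminins, had 28.0, 28.4 and 28.4 FPKM in R153A libraries, against 33.3, 35.0 and 31.7 FPKM in WT libraries (log2 fold change -0.23, SE 0.0516, limma adjusted p = 0.00272). Itga3 was the most abundant alpha subunit in R153A cells and Itga6 in WT cells, and the Itga3 to Itga6 ratio was 1.36 ± 0.0493 in R153A cells and 0.486 ± 0.0286 in WT cells. Itga7, a laminin receptor of muscle, had 1.11, 0.698 and 0.879 FPKM in R153A libraries and 1.47, 1.81 and 1.95 FPKM in WT libraries (log2 fold change -0.54, limma adjusted p = 0.000944). Itgb4, which pairs only with Itga6, had 2.16, 2.16 and 1.98 FPKM in R153A libraries and 1.17, 1.23 and 1.08 FPKM in WT libraries (log2 fold change 0.52, limma adjusted p = 0.000142). Itga6 and its partner Itgb4 so differed in opposite directions, with Itgb4 at 0.0371 of the Itgb1 level in R153A cells and 0.023 in WT cells. Itgb4 shares 8.4% of its exonic bases with B230344G16Rik on the opposite strand, and the correction for GC content and length left 0.27 of its log2 difference. The 3 laminin-binding alpha subunits together made up 76.2 ± 0.479% of alpha-subunit FPKM in R153A cells and 70.5 ± 1.11% in WT cells.

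Set beside their ligands, the laminin chain and the laminin-binding integrin subunit with the largest rise among those tested were Lama5 (2.77-fold by mean) and Itga3 (2.37-fold), with Lamb1 2.32-fold higher. The common subunits did not rise to a like degree, since Lamc1 was lower, at 0.848-fold of its WT level, and Itgb1 was only 1.12-fold of its own. The collagen-binding integrin subunits were all low. Itga1, Itga2, Itga10 and Itga11 together summed to 0.793 ± 0.152 FPKM in R153A cells and 1.03 ± 0.163 FPKM in WT cells, or 0.894% of alpha-subunit FPKM in R153A cells and 1.41% in WT cells, and none of the 4 reached the testing limit. Itga11 averaged 0.096 ± 0.00226 FPKM in R153A cells and 0.0234 ± 0.0172 FPKM in WT cells with no overlap, and was called higher in the fit without a filter (limma adjusted p = 0.00487). A collagen receptor outside the integrins, the kinase Ddr1, stood at 37.8 ± 1.63 FPKM in R153A cells and 11.9 ± 0.628 FPKM in WT cells (log2 fold change 1.59, SE 0.0576, limma adjusted p = 2.84e-09).

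Itgb1, the beta subunit of most matrix receptors, was the most abundant integrin and differed little, with 55.3, 57.7 and 56.8 FPKM in R153A libraries and 50.4, 54.2 and 46.7 FPKM in WT libraries (log2 fold change 0.17, SE 0.0574, limma adjusted p = 0.0274). Itga5, the fibronectin receptor alpha subunit, had 11.6, 10.9 and 10.7 FPKM in R153A libraries and 9.60, 10.2 and 9.57 FPKM in WT libraries (log2 fold change 0.16, limma adjusted p = 0.0397). Itgav, which binds vitronectin, osteopontin and fibronectin, averaged 7.10 ± 0.207 FPKM in R153A cells and 6.19 ± 0.322 FPKM in WT cells (log2 fold change 0.17, limma adjusted p = 0.0406). These 3 calls are close to the threshold and ended in many of the 17 alternatives, in 10 for each of the 3 genes. Without R153A replicate 1, 2 or 3 in turn, the limma adjusted p of Itgav was 0.106, 0.056 and 0.13, and that of Itga5 was 0.166, 0.0718 and 0.0577. Without WT replicate 1 or 3 it was 0.0958 and 0.095 for Itga5 and 0.0586 and 0.092 for Itgb1, and without WT replicate 1 or 2 it was 0.0553 and 0.0908 for Itgav; without R153A replicate 2 or 3 it was 0.0825 and 0.0721 for Itgb1. The ratio of Itgav to Itga5 overlapped, at 0.642 ± 0.0358 in R153A cells and 0.633 ± 0.0561 in WT cells. The RGD-binding alpha subunits together made up 21.3 ± 0.366% of alpha-subunit FPKM in R153A cells and 23.0 ± 1.09% in WT cells.

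Itgb5 and Itgb3, beta partners of Itgav, changed more than Itgav and Itgb1, its further partner, which each differed by 0.17 on the log2 scale. Itgb5, which with Itgav forms a vitronectin receptor, had 23.7, 23.3 and 23.5 FPKM in R153A libraries, against 8.25, 7.98 and 7.80 FPKM in WT libraries, and had the largest rise among the tested integrin subunits (log2 fold change 1.44, SE 0.0533, limma adjusted p = 3.22e-09). Itgb3, which with Itgav binds osteopontin and vitronectin, had 0.655, 0.411 and 0.512 FPKM in R153A libraries and 1.24, 1.68 and 1.29 FPKM in WT libraries (log2 fold change -0.66, limma adjusted p = 0.000173). Itgb5 was thus higher in all R153A libraries and Itgb3 lower in all of them. Itgb8, a further Itgav partner known for activating latent TGF-beta, was under the testing limit at 0.396 ± 0.148 FPKM in R153A cells and 0.0299 ± 0.0122 FPKM in WT cells, with no overlap. The ratio of Itgb5 to Itgb1 was 0.415 ± 0.0129 in R153A cells and 0.159 ± 0.0105 in WT cells. Among the RGD ligands of these receptors, Spp1 and Fn1 were lower in R153A cells, as given above. Vtn, which encodes vitronectin, was not above 0.0584 FPKM in any library. Not all integrin ligands fell, since Cyr61 and Ctgf were higher in R153A cells, as given below.

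Itgb7, which pairs with Itga4 in receptors of gut-homing lymphocytes and with Itgae in a receptor for E-cadherin, had 2.87, 2.85 and 3.35 FPKM in R153A libraries, against 8.84, 11.4 and 10 FPKM in WT libraries (log2 fold change -1.46, SE 0.0926, limma adjusted p = 1.81e-07). It fell to 3.5% of beta-subunit FPKM in R153A cells, against 14.2% in WT cells. Its known partners were scarce and under the testing limit. Itga4 averaged 0.121 ± 0.0189 FPKM in R153A cells and 0.0231 ± 0.00492 FPKM in WT cells. Itgae differed the other way, at 0.107 ± 0.0325 FPKM in R153A cells and 0.212 ± 0.0703 FPKM in WT cells. For both genes the groups did not overlap. No untested alpha subunit was above 0.983 FPKM. Of the leukocyte marker list, which summed to 4.52 to 5.95 FPKM in R153A libraries and 3.76 to 4.36 FPKM in WT libraries, the defining marker Ptprc did not exceed 0.0163 FPKM in any library, and without Lyz2 the list summed to 3.56 to 4.5 FPKM in R153A libraries and 2.95 to 3.78 FPKM in WT libraries, which overlap. The part of the list in the Itgb7 values was not tested. Itga9, a receptor for tenascin and osteopontin that pairs with Itgb1, had 0.748, 0.0645 and 0.721 FPKM in R153A libraries and 2.16, 2.75 and 2.45 FPKM in WT libraries (log2 fold change -1.22, SE 0.167, limma adjusted p = 8.06e-05). R153A replicate 2 was far under the other R153A libraries, and without it the log2 fold change was -0.99 (limma adjusted p = 1.14e-05).

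**Figure D4:**
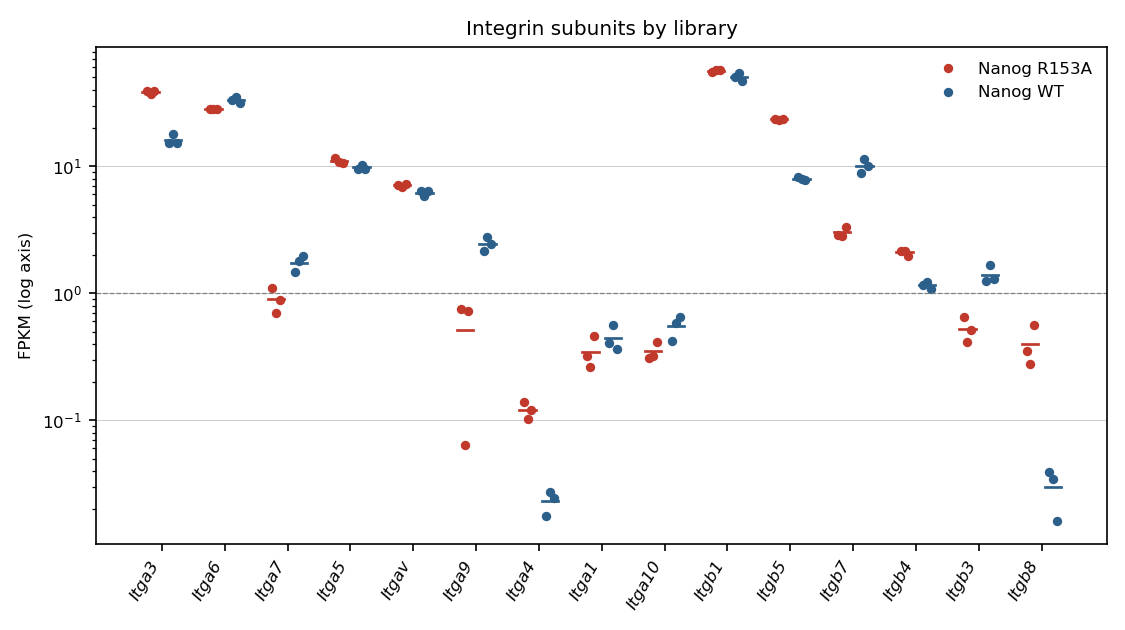
FPKM (log axis) of the 11 tested integrin subunits and 4 subunits under the testing limit in each library, R153A in red left of WT in blue, with a short line at the group mean and a dashed line at 1 FPKM. Itga3 and Itgb5 are higher and Itgb7 and Itga9 lower in every R153A library, while Itga5, Itgav and Itgb1 lie close together.

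**Figure D5:**
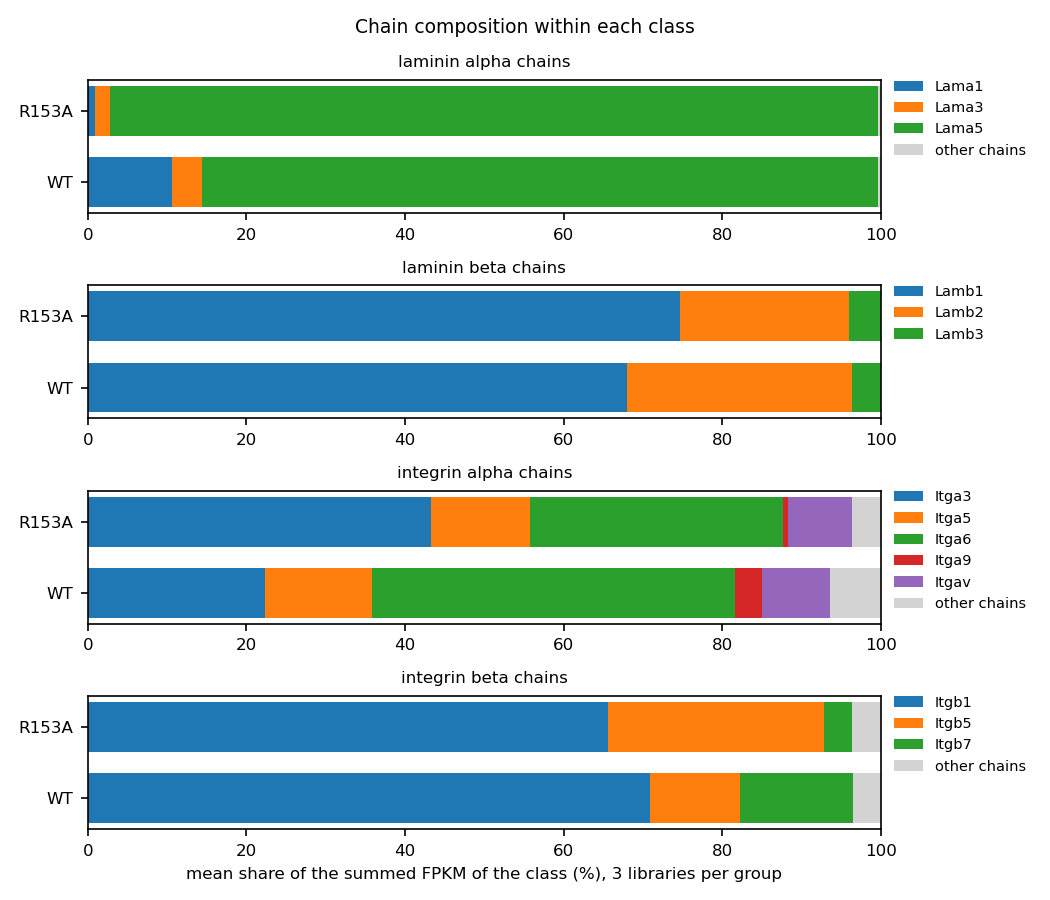
Mean share (%) of each chain in the summed FPKM of its kind, R153A beside WT, for laminin alpha and beta chains and integrin alpha and beta subunits; chains under 3% in both groups are grouped in grey. Lama5 takes 96.9% of laminin alpha chains in R153A cells against 85.2% in WT cells, Itga3 43.3% of integrin alpha subunits in R153A cells against 22.3% in WT cells, and Itgb5 27.2% of integrin beta subunits in R153A cells against 11.3% in WT cells.

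The other 46 members stayed under the testing limit, none above 1.16 FPKM, and 12 of them never exceeded 0.1 FPKM. Most were collagens (31), followed by integrin alpha subunits (10), laminin chains (3) and integrin beta subunits (2). When the fit was run on all genes listed above 0 without a filter, 17 of the 46 were called higher in R153A cells and 3 lower, and 56 of all 84 members were called (66.7%), against 40.3% of all genes in that fit. Collagen VI, a microfibrillar collagen whose chains assemble as a trimer, was among them. Col6a1 had 0.853, 1.16 and 1.03 FPKM in R153A libraries and 0.227, 0.161 and 0.0883 FPKM in WT libraries, and Col6a2 had 0.841, 1.08 and 0.927 FPKM in R153A libraries and 0.186, 0.130 and 0.111 FPKM in WT libraries. Col6a3, the chain that completes the trimer, averaged 0.211 ± 0.031 FPKM in R153A cells and 0.0984 ± 0.0182 FPKM in WT cells. Each of the 3 was higher in every R153A library, though at levels where the unknown depth limits the precision. Col27a1, a fibrillar collagen of cartilage, averaged 0.444 ± 0.0423 FPKM in R153A cells and 0.082 ± 0.0315 FPKM in WT cells, and Col3a1, the collagen of elastic tissues, 0.316 ± 0.0584 FPKM in R153A cells and 0.060 ± 0.0192 FPKM in WT cells.

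Several lists of related genes were counted beside the members in the same fit. Enzymes and chaperones of collagen maturation had 22 tested genes, of which 12 were higher, 6 lower and 4 not called (81.8% called, against 59.8% of all genes); 1 of them was tested only because of its R153A values. Pxdn, the peroxidasin that crosslinks collagen IV by sulfilimine bonds, stood at 14.4 ± 0.862 FPKM in R153A cells and 1.66 ± 0.182 FPKM in WT cells (log2 fold change 2.53, limma adjusted p = 9.28e-10). Loxl2, a lysyl oxidase that crosslinks collagen IV, averaged 19.9 ± 0.397 FPKM in R153A cells and 4.91 ± 0.574 FPKM in WT cells. Plod2, a lysyl hydroxylase, averaged 39.3 ± 1.62 FPKM in R153A cells and 13.4 ± 0.462 FPKM in WT cells, and Serpinh1, the collagen chaperone HSP47, 63.2 ± 0.635 FPKM in R153A cells and 23.1 ± 1.24 FPKM in WT cells. All 4 rose by more than 1 on the log2 scale. Of the 6 lower genes, Adamts14 averaged 2.42 ± 0.109 FPKM in R153A cells and 7.57 ± 0.653 FPKM in WT cells (log2 fold change -1.32). Pcolce averaged 8.82 ± 0.357 FPKM in R153A cells and 20.4 ± 1.74 FPKM in WT cells (log2 fold change -1.12). Pcolce2, Crtap, Lepre1 and Sec23a fell less. The lower genes were named after their values were seen. The list also holds Col4a3bp, a ceramide transfer protein named for an old link to collagen IV and no collagen enzyme, at 13 ± 0.463 FPKM in R153A cells and 10.8 ± 0.534 FPKM in WT cells.

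Matrix receptors other than integrins had 18 tested genes, 12 higher, 3 lower and 3 not called (83.3% called, against 59.8% of all genes). Besides Ddr1 they included Bcam, a receptor for the Lama5 chain, at 51.3 ± 1.60 FPKM in R153A cells and 19.1 ± 1.62 FPKM in WT cells (log2 fold change 1.38, limma adjusted p = 1.45e-08). Gpc1, a glypican, averaged 12.2 ± 0.748 FPKM in R153A cells and 5.53 ± 0.351 FPKM in WT cells, and Cd47, which binds thrombospondin and integrins, 3.89 ± 0.466 FPKM in R153A cells and 1.40 ± 0.16 FPKM in WT cells. Dag1, the laminin receptor dystroglycan, averaged 50.8 ± 0.652 FPKM in R153A cells and 31.3 ± 2.23 FPKM in WT cells, and Cd151, a tetraspanin that binds laminin-binding integrins, 31.3 ± 1.02 FPKM in R153A cells and 18.8 ± 1.18 FPKM in WT cells; both were named after their values were seen. The laminin receptors Bcam and Dag1 so rose beside Itga3, while Itga6 and Itga7 fell. Rpsa, the most abundant gene of the list, was not called, at 828 ± 12.7 FPKM in R153A cells and 895 ± 28.7 FPKM in WT cells. The 3 lower genes were Cd9 (72.8 ± 2.35 FPKM in R153A cells, 113 ± 9.01 FPKM in WT cells), Gpc3 and Gpc4. These 4 genes were also named after their values were seen. The list sum overlapped between the groups, at 1312 to 1353 FPKM in R153A libraries and 1267 to 1346 FPKM in WT libraries.

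Other matrix proteins had 20 tested genes, 18 higher and 2 not called (90% called, against 59.8% of all genes). Of the 18, 5 (Efemp1, Emilin2, Frem2, Ltbp1 and Mfap2) were tested only because of their R153A values and so had to be higher. Frem2, a basement membrane protein of the Fraser complex, stood at 6.12 ± 0.336 FPKM in R153A cells and 0.513 ± 0.0775 FPKM in WT cells (log2 fold change 2.24). The matricellular integrin ligands Cyr61 and Ctgf averaged 56.0 ± 1.64 and 19.9 ± 0.157 FPKM in R153A cells, against 14.9 ± 0.725 and 5.76 ± 0.257 FPKM in WT cells. Thbs1, which encodes thrombospondin, averaged 6.81 ± 0.195 FPKM in R153A cells and 2.27 ± 0.357 FPKM in WT cells. These 4 rose while the matrix members Spp1, Fn1, Nid1 and Timp1 fell.

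Among intracellular adhesion proteins 29 were tested, 14 higher, 6 lower and 9 not called (69.0% called, against 59.8% of all genes). Of these, 2 (Fermt1 and Parva) were tested only because of their R153A values and Tns1 only because of its WT values. Zyx, a protein of focal adhesions and stress fibres, averaged 15.0 ± 0.88 FPKM in R153A cells and 3.38 ± 0.0268 FPKM in WT cells (log2 fold change 1.87, limma adjusted p = 2.33e-09). Ilk and Parva, which form a complex at integrin tails, averaged 33.1 ± 0.776 and 3.08 ± 0.0797 FPKM in R153A cells, against 13 ± 1.45 and 0.608 ± 0.067 FPKM in WT cells. The related and more abundant Parvb fell, to 7.88 ± 0.191 FPKM in R153A cells against 15.8 ± 0.81 FPKM in WT cells (log2 fold change -0.92, limma adjusted p = 2.44e-07). Lims1 was not called, at 15.5 ± 0.814 FPKM in R153A cells and 15.7 ± 0.96 FPKM in WT cells. Parvb and Lims1 were named after their values were seen. Tns1, which links integrin tails to actin, fell to 0.654 ± 0.0359 FPKM in R153A cells, against 2.36 ± 0.246 FPKM in WT cells. Matrix proteases and their regulators had 21 tested genes, 11 higher, 3 lower and 7 not called (66.7% called, against 59.8% of all genes). Mmp9, Timp2 and Plau were tested only because of their R153A values. Plaur, the urokinase receptor, averaged 20.5 ± 0.895 FPKM in R153A cells and 4.76 ± 0.382 FPKM in WT cells, its protease Plau 2.3 ± 0.174 FPKM in R153A cells and 0.253 ± 0.0507 FPKM in WT cells, and the protease inhibitor Serpine2 14.0 ± 0.842 FPKM in R153A cells and 3.01 ± 0.38 FPKM in WT cells. Mmp11 went the other way, at 11.7 ± 0.0923 FPKM in R153A cells and 39.2 ± 4.34 FPKM in WT cells (log2 fold change -1.66, limma adjusted p = 1.01e-08). Receptor, protease and inhibitor of the urokinase system were so raised together, while Mmp11 fell as Mmp2 rose.

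Markers of other cell types that make laminin and collagen IV moved unevenly. Of 12 primitive endoderm markers 5 were tested, 2 higher, 1 lower and 2 not called, and the 3 called genes (Foxa2, Fst and Sox7) passed the filter only through the group where they are high, so their calls were built in. The list summed to 12.5 to 12.7 FPKM in R153A libraries and 6.71 to 7.64 FPKM in WT libraries. The rise in this sum was carried by Foxa2 (3.40 ± 0.341 FPKM in R153A cells, 0.176 ± 0.0811 FPKM in WT cells) and Fst (3.22 ± 0.293 FPKM in R153A cells, 0.170 ± 0.0238 FPKM in WT cells). Gata4 averaged 1.48 ± 0.156 FPKM in R153A cells and 1.48 ± 0.216 FPKM in WT cells and was not called (limma adjusted p = 0.973). Gata6 was low, at 0.142 ± 0.0531 FPKM in R153A cells and 0.143 ± 0.0631 FPKM in WT cells, and Sox17 was not above 0.0687 FPKM in any library. Under the testing limit, Dab2 averaged 0.71 ± 0.101 FPKM in R153A cells and 0.013 ± 0.0025 FPKM in WT cells. Plat averaged 0.723 ± 0.159 FPKM in R153A cells and 0.148 ± 0.0259 FPKM in WT cells. Dab2 and Plat were higher in every R153A library, while Sox7 and Sox17 were lower in every R153A library. Of 7 endothelial markers 6 were under 1 FPKM in all libraries, Flt1 averaged 3.73 ± 0.187 FPKM in R153A cells and 0.207 ± 0.0516 FPKM in WT cells, and Cdh5 did not exceed 0.0798 FPKM; without Flt1 the list summed to 1.18 to 1.47 FPKM in R153A libraries and 1.5 to 1.63 FPKM in WT libraries. The 8 trophectoderm markers summed to 42.1 to 44.6 FPKM in R153A libraries and 61.3 to 68.4 FPKM in WT libraries, with 3 of 6 tested genes higher and 2 lower. Its direction rests on Tfap2c (19.8 ± 1.1 FPKM in R153A cells, 55.4 ± 3.24 FPKM in WT cells), since the other 7 markers summed to 23.4 to 23.9 FPKM in R153A libraries and 8.62 to 11.1 FPKM in WT libraries. Among these, Krt7 averaged 7.61 ± 0.479 FPKM in R153A cells and 1.2 ± 0.328 FPKM in WT cells, Ascl2 7.99 ± 0.795 FPKM in R153A cells and 2.27 ± 0.283 FPKM in WT cells, and Cdx2, tested only through its R153A values, 2.78 ± 0.392 FPKM in R153A cells and 0.117 ± 0.0364 FPKM in WT cells. Of the remaining trophectoderm markers, Eomes was lower, at 2.42 ± 0.353 FPKM in R153A cells and 3.38 ± 0.581 FPKM in WT cells (limma adjusted p = 0.0163). Hand1 was not called, at 2.61 ± 0.305 FPKM in R153A cells and 2.66 ± 0.308 FPKM in WT cells (limma adjusted p = 0.869). Elf5 and Gcm1 were under the testing limit, with overlapping groups. The part of these other cell types in the matrix values was not tested.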

How the data were processed

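RNA-seq of polyadenylated RNA was measured in 3 R153A and 3 WT libraries, grouped by the labels. The authors deposited 1 table of FPKM values for 24083 gene symbols; the submitters' processing notes name edgeR 3.26.8, HTSeq 0.11.2, SAMtools 1.9, Bowtie2 2.3.4.3 and the build mm9, but not what each did. Which tool made the FPKM values, on which annotation and with or without strand, is not given in the sources used here. Read numbers could not be recovered from the values, so depth is unknown and no count test or counting interval was made.

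FPKM values were taken as deposited, as log2(FPKM + 1), for the 11817 genes at 1 FPKM or more in at least 3 libraries. The groups were compared with limma 3.58.1 in R 4.3.3 (mean-variance trend, 2-sided, Benjamini-Hochberg adjustment over all genes tested, called at an adjusted p under 0.05), checked on simulated data. An exact permutation test of 3 against 3 libraries cannot go below 0.1 and was not used. Shares and ratios were taken within a library and are descriptions. Folds are ratios of mean FPKM. GC content, length and exonic overlaps came from GENCODE M21 by gene symbol (99.5% of genes tested matched), and promoter windows from RefSeq (GRCm38.p6), with no conversion between builds. Plots were made in Python 3.11.15 with matplotlib 3.10.9.

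The 17 alternatives were other pseudocounts, filters, scalings and limma settings, a replicate block, a loess correction for GC content and length, and each library left out. 1 tested member is in the counts but its values are not reported here. The members, the lists and the tests were chosen with earlier results of these data known. Members called with a log2 change of 0.5 or more in size, or averaging at least 10 FPKM in a group, are given by library; other tested members by mean ± SD, low members by their highest value, and lists by up to 4 called genes of largest change.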

Additional observations from a re-analysis of the deposited data

How the results depend on the processing

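Of the 37 members called, 31 kept their call and direction in every alternative that tested them; the others were Hspg2, Itga5, Itgav, Itgb1, Lamb3 and Nid2. Without a filter on low values 40 members were called higher, and with a filter of 5 FPKM 14 were called higher and 8 lower, of 22 tested; these filters change how many genes are tested. Of the related lists, other matrix proteins had 31 and 8 genes higher under the same 2 filters, and matrix proteases 17 and 5 higher and, at 5 FPKM, 1 lower; under median-ratio scaling and under the correction for GC content and length, adhesion proteins had 10 genes lower and other receptors 5. After the correction for GC content and length the log2 fold change of Hspg2 was -0.16, that of Itga5 -0.01 and that of Lama3 -0.14, and under quantile normalization that of Lama3 was -0.20, each the opposite sign to the values as deposited; the cause was not tested. With each library left out in turn, 21 to 23 members were higher and 13 lower. With the replicate number as a block, 22 members were higher and 13 lower, and 6876 of all genes were called. The labels do not say that a number marks a shared culture, and same-numbered libraries did not deviate together (r = -0.049, -0.009 and 0.060; other pairs -0.054 to 0.077). Depth is unknown, which limits what can be said of members under 1 FPKM.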
